A study of Homo sapiens with 15 samples.

Results

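The RNA recovered with an antibody against Sfpq from 22Rv1 cells was compared with the input RNA of the same line. The comparison rests on 4 of the 15 libraries of the series, 2 Sfpq libraries and 2 input libraries, chosen by the antibody and cell line named in their labels. 22Rv1 is an established human prostate cancer cell line, and RNA immunoprecipitation sequencing reads the RNA that stays with a protein when an antibody pulls it out of a lysate. Per the labels, all cells were fixed in formaldehyde at 0.3% for 30 minutes, so RNA held near the protein through other molecules can be recovered as well. Each Sfpq library received the Sfpq antibody, and the input libraries hold RNA taken without a pull-down and diluted before library preparation. All libraries were depleted of ribosomal RNA. The 2 Brg1 libraries (Brg1, encoded by SMARCA4, is the motor subunit that lets SWI/SNF complexes move nucleosomes) and 3 libraries with non-specific IgG from the same line are used below only to show where the Sfpq libraries stood apart from them. No treatment, genotype or time point distinguishes the groups, and the labels name no clone.

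SFPQ binds RNA and DNA and, with its relatives NONO and PSPC1, forms the DBHS protein family. These proteins are core parts of paraspeckles, nuclear bodies built on the long noncoding RNA NEAT1, and SFPQ also takes part in splicing and in the transcription of long genes.

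The table holds 22542 rows for 14296 gene names, of which 11687 carry the suffix .primary after the gene name and 10855 do not. What the suffix stands for, and how reads were divided between the rows of a gene, is not given in the sources used here. Rows without it are called plain rows below. In all, 8246 genes had both rows, 3441 only a .primary row and 2609 only a plain row. The Sfpq libraries held 7139669 and 7352226 reads and the inputs 47871438 and 16037423, so 3 reads correspond to 0.420 and 0.408 reads per 1000000 (RPM) in the Sfpq libraries and to 0.0627 and 0.187 in the inputs. A level below is a share of the library in RPM, and a fold change is the difference of log2(RPM + 0.5) between Sfpq and input. Among prostate luminal marker genes, KRT18 stood at 32.1 and 39.4 RPM in input, KRT8 at 16.7 and 14.1 and HOXB13 at 19.7 and 25.6, while KLK2, KLK3 and EPCAM had no row. Of the basal and endothelial markers none had a row, nor had the leukocyte markers PTPRC, CD3E and LYZ, and of 5 fibroblast markers only COL1A1 did, at 17.6 and 19.95. The Spearman correlation across rows was 0.975 between the Sfpq libraries and 0.979 between the inputs.

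Against input, Sfpq-recovered RNA held larger shares of plain rows of zinc finger genes, long genes and several long noncoding RNAs. It held smaller shares of small structured RNAs, ribosomal protein mRNAs and nuclear-encoded respiratory chain mRNAs. The Brg1 and IgG libraries also held smaller shares of these last classes than the inputs. Of 22529 rows tested with limma, 5657 (25.1%) rose at an adjusted p under 0.05 and 8109 (36.0%) fell, and the median row changed by -0.19 on the log2 scale. Plain rows and .primary rows moved apart. Among 10853 plain rows, 4299 (39.6%) rose and 2291 (21.1%) fell, with a median of 0.22. Among 11676 .primary rows, 1358 (11.6%) rose and 5818 (49.8%) fell, with a median of -0.54. The share of calls that were rises depended on the scaling: it was 41.1% with library totals, 50.5% with TMM factors, 51.8% with median-of-ratios factors and 5.19% (326 rises and 5951 falls) with the scaling the authors deposited. TMM and median-of-ratios factors moved the median of all rows by 0.15 and 0.18, the deposited scaling by -0.50, and leaving the 20 most abundant rows out of the totals by -0.12. Each fold change below carries that uncertainty, so a small rise is best read against the median row. Of the 76 named rows that rose, 53 lost the call with the deposited scaling, against 5 of the 80 named rows that fell. Among the rises described below, those of the plain rows of HIVEP1, RFX7, RLF, DNM1P47, ZNF616, ZNF189, FIGN and MT-TH, and of the .primary rows of HIST1H2BC, AC055811.1, FILIP1L, OAZ1 and CD81, kept the call, and the others did not. When the IgG and Brg1 libraries shared the fit, and with it the wider spread between IgG libraries, limma called 0 rows higher and 8 lower, with 603 and 710 at an unadjusted p under 0.05.

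**Figure D1:**
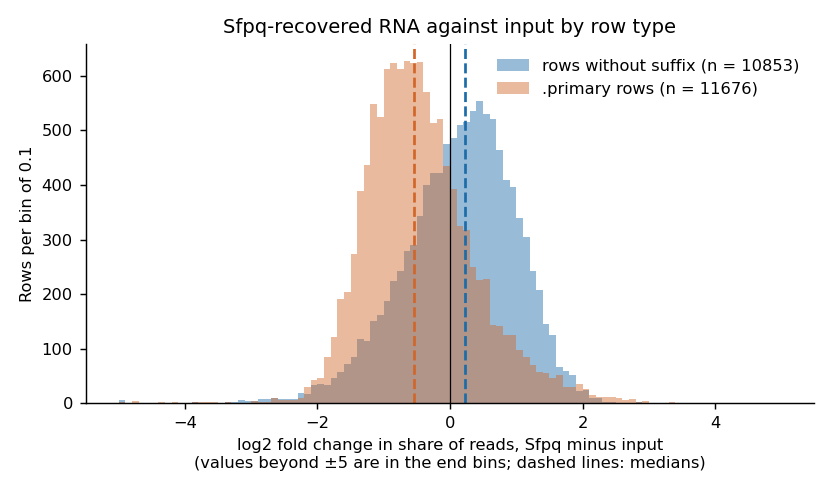
Number of rows (vertical axis) by log2 fold change in share of reads, Sfpq minus input (horizontal axis), for plain rows in blue and .primary rows in orange; dashed lines mark the medians. The plain rows centre at 0.22 and the .primary rows at -0.54.

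The difference between row types kept its sign in every setting, but not every setting could change it. A factor for a whole library moves both medians alike, so other scalings of that kind could not test this difference. The median of plain rows lay above that of .primary rows by 0.76, and by 0.38 to 0.91 over all alternatives, the smallest when shares were taken within each row type. Within a gene, the ratio of the .primary row to the plain row depended little on how libraries were scaled: with the deposited scaling 809 genes had a higher and 4657 a lower ratio. Of 8245 genes tested for this ratio, 4695 (56.9%) had a lower ratio in Sfpq than in input and 818 (9.92%) a higher one (496 without input A and 432 without input B), with a median change of -0.94. In this fit limma took a single spread for all genes, apart from its dependence on level. By the calls of the separate rows, 2328 of those genes (28.2%) had a plain row that rose and a .primary row that fell, and 152 (1.84%) had the opposite. Both rows rose in 328 genes and fell in 820.

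Summed over the table, .primary rows took 27.5% and 33.4% of the reads in the Sfpq libraries, and 38.2% and 34.8% in the inputs. The Sfpq libraries were the lower pair, and they differed from each other by more than the gap between the lower input and the higher Sfpq library. The mean was 30.4% ± 4.196 (SD, n = 2) for Sfpq and 36.5% ± 2.44 (SD, n = 2) for input, a difference of -6.07 percentage points (-3.11 without Sfpq A). An exact permutation test over the libraries (two-sided) gave p = 0.333, the smallest that 2 against 2 allows. Taken as the median over genes with both rows, the .primary share was 27.4% and 32.5% in Sfpq and 45.9% and 42.8% in input. The Brg1 libraries put 65.7% and 62.7% of their reads on .primary rows, and the IgG libraries 62.5%, 59.5% and 39.1%. The Sfpq libraries were thus below every other library of the line in this share, on the opposite side of input from Brg1.

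SPECC1L, which encodes a cytoskeletal linker protein, shows how a gene's rows could part. Its plain row stood at 421 and 398 RPM in Sfpq and at 132 and 140 in input, a rise of 1.59 (SE 0.13, adjusted p = 2.3e-07). Its .primary row stood at 10.6 and 4.76 in Sfpq and at 142 and 137 in input, and fell by 4.19 (SE 0.25, adjusted p = 1.1e-08). The groups did not overlap in either row. MPRIP, a myosin phosphatase partner, had the same arrangement, with a plain change of 1.28 and a .primary change of -2.55, as had the zinc finger gene ZNF189, with 1.87 and -1.94. The opposite arrangement was seen in OAZ1, the ornithine decarboxylase antizyme, whose plain row fell by 1.18 and whose .primary row rose by 2.76, and in CD81, a tetraspanin, with -1.23 and 2.29.

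The DBHS family, to which SFPQ itself belongs, rose in its plain rows and fell in its .primary rows. This was the commonest pattern, seen in 28.2% of genes with both rows tested. Of all plain rows 39.6% rose, and of all .primary rows 49.8% fell. SFPQ stood at 826 and 735 RPM in the Sfpq libraries and at 452 and 449 in the inputs, a rise of 0.79 (SE 0.13, adjusted p = 0.000102). NONO stood at 682 and 577 against 440 and 506, a rise of 0.41 (SE 0.14, adjusted p = 0.0181), and PSPC1 at 85.2 and 66.1 against 53.7 and 44.0, a rise of 0.62 (SE 0.17, adjusted p = 0.00446). In all of them both Sfpq libraries were above both inputs, by the least margin in NONO. The .primary rows fell, with changes of -1.23 for SFPQ, -1.10 for NONO and -0.92 for PSPC1. With both rows of a gene summed, SFPQ differed by 0.59, NONO by 0.33 and PSPC1 by -0.03. With the deposited scaling the change of the plain NONO row was -0.11, and the plain rows of SFPQ and PSPC1 were no longer called. The plain row of NONO was not called when either input library was left out, and that of PSPC1 not without input B. Against Brg1 all 3 plain rows were higher, with a median difference of 0.77, as were 7227 of 10140 protein-coding plain rows. Against IgG 0 of the 3 were called.

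The list of other paraspeckle proteins had more rises than falls in its plain rows. Of 34 plain rows, 22 rose and 3 fell, with a median of 0.51 (-0.01 with the deposited scaling), beside 39.6% and 21.1% of all plain rows. Of their 29 .primary rows, 2 rose and 19 fell (65.5%, beside 49.8% of all .primary rows). The plain row of FIGN, a microtubule-severing ATPase, was highest at 74.5 and 71.5 RPM against 16.5 and 18.5, a rise of 2.04 (SE 0.16, adjusted p = 1.7e-07). With both of its rows summed, FIGN rose by 0.75. RBM3, a cold-inducible RNA-binding protein, was lowest at 83.1 and 68.6 against 123 and 121, a change of -0.69 on the log2 scale. Of 24 plain hnRNP and related rows, 10 rose (41.7%, near the 39.6% of all plain rows) and 1 fell, with a median of 0.26, beside 0.22 over all plain rows, that turned to a negative value with the deposited scaling. HNRNPUL2, a nuclear scaffold-associated protein of the hnRNP U kind, led them with a rise of 1.28, and PCBP2, a poly(C)-binding protein, was the one that fell, by 0.44, though not with TMM factors or without input B. Of 24 rows for speckle and splicing proteins, 9 rose (37.5%) and 5 fell (20.8%), also near the shares of all plain rows. SON, a large scaffold protein of nuclear speckles, stood at 1102 and 1032 against 437 and 468, a rise of 1.24. The 14 SR proteins, splicing factors with arginine-serine repeats, went the other way: 1 rose (SRSF4, 0.49, not called without input B) and 7 fell, with a median of -0.32. These falls were 50% of the SR protein rows, beside 21.1% of all plain rows. Of 4 CLK kinases, which phosphorylate SR proteins, 2 rose in their plain rows (50%, beside 39.6% of all plain rows) and none fell. In their .primary rows 3 fell (75%, beside 49.8% of all .primary rows).

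Among 8 long noncoding RNAs with plain rows, 5 rose (62.5%) and 3 fell (37.5%), beside 39.6% and 21.1% of all plain rows. NEAT1, the scaffold of paraspeckles, stood at 774 and 981 RPM in Sfpq and at 447 and 379 in input, a rise of 1.08 (SE 0.15, adjusted p = 1.7e-05). Both Sfpq libraries were above both inputs. The Brg1 libraries stood at 1095 and 1088 and the IgG libraries at 1478, 1537 and 740, so NEAT1 was not highest in the Sfpq libraries. NORAD, a noncoding RNA that binds Pumilio proteins, stood at 870 and 902 against 344 and 277 in input, a rise of 1.52 (SE 0.14, adjusted p = 5.7e-07). In Brg1 it stood at 70.0 and 75.1, and in IgG at 252, 108 and 805. TUG1 stood at 327 and 273 against 130 and 163, a rise of 1.03. In KCNQ1OT1, the antisense transcript that silences an imprinted cluster, Sfpq stood at 80.4 and 103 RPM. The Brg1 libraries stood at 414 and 392 and the IgG libraries at 251, 254 and 69.3. Against input KCNQ1OT1 rose by 0.47 and OIP5-AS1 by 0.35. The latter pair turned negative with the deposited scaling, at -0.04 and -0.16, and was not called when either input library was left out.

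MALAT1, a speckle-associated transcript, fell. It stood at 1275 and 1246 RPM in Sfpq and at 2614 and 2738 in input, a change of -1.08 (SE 0.13, adjusted p = 7.6e-06), and at 6593 and 5801 in Brg1. Sfpq and Brg1 lay on opposite sides of input in this RNA. The IgG libraries stood at 4616, 4420 and 2449, so IgG A and IgG B were above input as well, and IgG C was below it. FIRRE, which organises chromatin in the nucleus, fell by 0.68, a call lost when either input library was left out, and DANCR changed by -2.004, on 25 and 11 reads in the Sfpq libraries. SCHLAP1, the prostate cancer transcript in the title of the series, had only a .primary row. It stood at 62.4 and 67.5 RPM in Brg1 and at 40.5, 20.6 and 65.2 in IgG. In Sfpq it stood at 15.1 and 23.5 and in input at 16.6 and 13.8, with overlapping groups. Between these it differed by 0.31 (SE 0.22, adjusted p = 0.247). The difference was -0.003 without Sfpq B and 0.62, past the threshold, without Sfpq A.

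**Figure D2:**
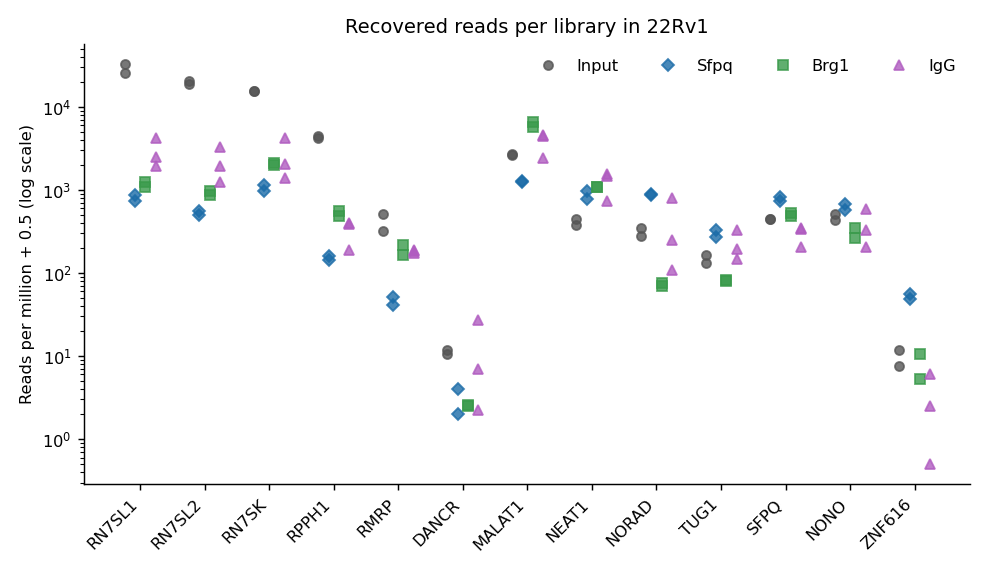
RPM plus 0.5 on a log axis in every 22Rv1 library, by RNA, with circles for input, diamonds for Sfpq, squares for Brg1 and triangles for IgG. RN7SL1, RN7SL2, RN7SK and RPPH1 are lower in all pull-downs than in input, while NORAD and ZNF616 are higher in Sfpq than in input and Brg1.

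Small structured RNAs fell furthest. All 6 rows of the list were called lower, with a median of -4.37, and no .primary row exists for them. The counts here stand beside 21.1% of all plain rows that fell. RN7SL1, the RNA of the signal recognition particle, stood at 874 and 743 RPM in Sfpq and at 25670 and 32890 in input, a change of -5.17 (SE 0.16, adjusted p = 3.5e-12). Its near-identical copy RN7SL2 stood at 558 and 502 against 18810 and 20540, and reads of these copies may be split between them. RN7SK, which holds the elongation factor P-TEFb inactive, stood at 1157 and 967 against 15620 and 15420, a change of -3.88. RPPH1, the RNA of ribonuclease P, stood at 141 and 160 against 4500 and 4235, a change of -4.86, and RMRP, its relative in ribosomal RNA processing, fell by 3.15. RNU1-1, a U1 spliceosomal RNA, fell by 3.64, with input libraries that differed at 297 and 122. Together these rows made up 0.280% and 0.243% of the Sfpq reads and 6.54% and 7.35% of the input reads. They took 0.516% and 0.460% in Brg1 and 0.687%, 0.517% and 1.23% in IgG, so the low share was common to all pull-downs. The 6 rows were also below Brg1 in the direct test, by a median of -0.92, where 39.1% of all rows were lower. All 13 snoRNA and scaRNA rows, guides for the modification of ribosomal and spliceosomal RNA, fell as well, with a median of -2.25, from SCARNA10 at -3.11 to SNORD3C at -1.08. Of 15 snoRNA host genes, 14 fell, ZFAS1 the most at -2.73, and SNHG14 rose by 0.54, a call that was lost when any of the 4 libraries was left out. SNORD3C was not called without Sfpq A, at -0.62.

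Ribosomal protein mRNAs fell almost as a block. Of 86 plain rows 85 fell and 1 rose, with a median of -2.01, beside 21.1% of all plain rows that fell. They held 1.28% and 0.893% of the Sfpq reads and 3.94% and 3.90% of the input reads. They took 1.07% and 1.21% in Brg1 and 1.485%, 1.36% and 2.76% in IgG, so all pull-downs were below input. In the direct test against Brg1 the median was -0.27, with 5 rows higher and 16 lower. Of all rows of that comparison 37.1% were higher and 39.1% lower, and of 10140 protein-coding plain rows 7227 were higher and 269 lower. Of 48 .primary rows, 39 fell (81.25%, beside 49.8% of all .primary rows) and RPL13.primary rose. The ratio of .primary to plain reads rose in 28 of 48 genes and fell in 1, against the direction of most genes. Of all genes tested for this ratio, it rose in 9.92% and fell in 56.9%. These genes are known for messages that begin with a run of pyrimidines, the 5′ TOP tract. To show this tract, the 30 bases from 10 before to 20 after the RefSeq start are given on the sense strand for the 4 plain rows with a start window that lay lowest and the 2 that lay highest, and for TPT1 and EEF1A1, which also carry a TOP tract. Capitals mark CTTT (RefSeq, GRCh38.p14).
RPS21 (chr20:62387093-62387122, + strand): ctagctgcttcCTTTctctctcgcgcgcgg
RPS12 (chr6:132814559-132814588, + strand): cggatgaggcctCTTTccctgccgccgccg
RPLP1 (chr15:69452808-69452837, + strand): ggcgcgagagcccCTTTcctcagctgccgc
RPS29 (chr14:49598691-49598720, - strand): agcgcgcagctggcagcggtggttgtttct
RPL26L1 (chr5:172958719-172958748, + strand): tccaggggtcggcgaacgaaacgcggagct
RPL7L1 (chr6:42879606-42879635, + strand): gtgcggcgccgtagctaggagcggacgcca
TPT1 (chr13:45341164-45341193, - strand): ctgagtcggcCTTTtccgcccgctcccccc
EEF1A1 (chr6:73521013-73521042, - strand): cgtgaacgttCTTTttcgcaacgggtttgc

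RPS21 stood at 23.8 and 17.0 RPM in Sfpq and at 237 and 199 in input, a change of -3.40 (SE 0.17, adjusted p = 2.2e-09). RPS12 stood at 35.4 and 22.4 against 282 and 287, and RPLP1, a stalk protein of the ribosome, at 78.9 and 53.7 against 645 and 615. RPS29 stood at 33.1 and 20.3 against 266 and 192. Among these, Sfpq A was above Sfpq B in each, and both were far below the inputs. RPL26L1, a paralogue of RPL26, fell by 0.72, and RPL7L1, a paralogue of RPL7, stood at 235 and 202 against 134 and 154, a rise of 0.60 (SE 0.14, adjusted p = 0.00161) that was not called without input A. The windows of this last pair, and that of RPS29, hold no CTTT. TPT1, the translationally controlled tumour protein, stood at 88.5 and 73.9 against 466 and 484, a change of -2.55, and EEF1A1, the elongation factor that brings aminoacyl-tRNA to the ribosome, at 1738 and 1291 against 3547 and 3881, a change of -1.31. Many of these genes have processed pseudogenes, so their reads may be shared with copies.

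A start window was found for 69 of the 86 ribosomal protein rows, and 43 of those (62.3%) hold CTTT on the sense strand, against 12.5% of all 35116 RefSeq windows. The reverse complement AAAG is in 3 (4.35%), against 9.64% of all windows and 5.75% of those of the other plain rows. No other motif was searched. Among ribosomal protein rows the median change was -2.19 with CTTT and -1.78 without. Among the other plain rows it made little difference: 843 of 8562 hold CTTT, the median was 0.23 with it and 0.25 without, and 20.6% fell with it against 20.03% without.

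The counts of further lists of plain rows stand beside 39.6% of all plain rows that rose and 21.1% that fell. Of 87 nuclear-encoded respiratory chain rows, 70 fell (80.5%) and 1 rose, with a median of -1.11. They held 0.31% and 0.24% of the Sfpq reads and 0.47% and 0.48% of the input reads. The other pull-downs were below input too, at 0.23% and 0.26% in Brg1 and 0.19%, 0.17% and 0.39% in IgG. ATP5F1E, the epsilon subunit of ATP synthase, fell by 2.72, and NDUFS1, the largest subunit of complex I, rose by 0.60 but not without input A. Of 25 secretory pathway rows, 21 fell (84%) and 1 rose: SSR4, a subunit of the translocon-associated complex, fell by 2.23 and its partner SSR1 rose by 0.54. Of 9 antigen presentation rows, 8 fell. Mitochondrial ribosomal proteins fell in 41 of 76 rows and rose in 4. Of 49 replication histone rows, whose messages end in a stem-loop in place of a poly(A) tail, 32 fell, with a median of -0.50. These histone genes are near-identical copies, and their reads may be split among them. Of 31 proteasome subunit rows, 10 fell (32.3%) and 3 rose (9.68%), with a median of -0.28. Glycolytic enzymes were split, with 3 that rose and 4 that fell of 16. GAPDH fell by 0.88, and ACTB, at 959 and 858 against 939 and 1015, differed by -0.11 (adjusted p = 0.511) with overlapping groups. Of 40 rows in the translation factor list, which also holds TPT1, 12 rose and 16 fell. TPT1 was lowest and EIF3A, the large scaffold of initiation factor eIF3, was highest, with a rise of 1.08.

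**Figure D3:**
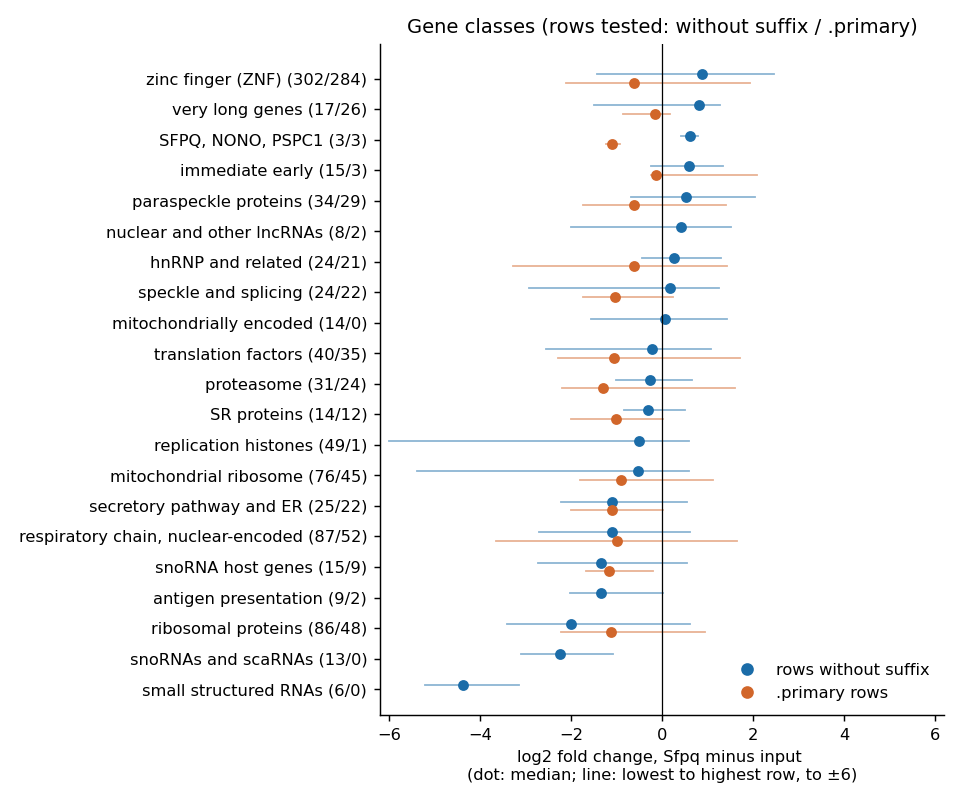
Median log2 fold change, Sfpq minus input, of each gene class (dots), with lines from the lowest to the highest row, for plain rows in blue and .primary rows in orange; the numbers of rows tested stand after each name and classes with fewer than 3 rows of a type are left without a dot. Small structured RNAs are at -4.37 and ribosomal proteins at -2.01, and plain zinc finger rows are at 0.87 with their .primary rows at -0.62.

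Zinc finger genes of the ZNF series, most of which encode KRAB or other C2H2 repressors, rose in their plain rows. Of 302 plain rows, 220 rose (72.8%, beside 39.6% of all plain rows) and 10 fell, with a median of 0.87. Their share of reads was 1.43% and 1.36% in Sfpq, 0.708% and 0.732% in input, 0.439% and 0.460% in Brg1, and 0.547%, 0.609% and 0.826% in IgG, so both Sfpq libraries were highest. ZNF616 stood at 55.5 and 47.9 RPM in Sfpq and at 7.06 and 11.2 in input, a rise of 2.47 (SE 0.21, adjusted p = 3.5e-07). At the other end ZNF767P, a pseudogene, fell by 1.44. Of 284 .primary rows 23 rose and 149 fell (52.5%, near the 49.8% of all .primary rows), with a median of -0.62. The ratio of .primary to plain reads fell in 178 of 225 genes and rose in 6, beside falls in 56.9% of all genes tested for it. Against Brg1, 263 of the plain rows were higher and 4 lower, beside 37.1% higher and 39.1% lower among all 22538 rows of that comparison. Most plain rows went this way: of 10140 protein-coding plain rows, 7227 were higher than in Brg1 and 269 lower.

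Plain rows of longer genes stood higher. By the length of the RefSeq gene from start to end, the median change of plain rows was -0.58 below 5 kb, -0.14 from 5 to 20 kb, 0.20 from 20 to 50 kb, 0.45 from 50 to 100 kb, 0.69 from 100 to 200 kb, 0.77 from 200 to 500 kb and 0.87 above 500 kb. The bins from 20 to 100 kb turned negative with the deposited scaling and the longer ones did not. Above 500 kb, 98 of 147 plain rows rose (66.7%, beside 39.6% of all plain rows) and 2 fell. The .primary rows had no such order: their medians were -0.21, -0.58, -0.74, -0.71, -0.52, -0.32 and -0.18 in the same bins. The bins were chosen after the values were seen, and gene span is not the length of the mature RNA, which was not used here. In a list of very long genes, 13 of 17 plain rows rose (76.5%) and FHIT fell by 1.503. Of 26 .primary rows, 0 rose and 5 fell (19.2%), beside 11.6% and 49.8% of all .primary rows. The plain row of PRKCE, a protein kinase C, was highest at 31.2 and 27.3 RPM against 9.07 and 15.2, a rise of 1.28. With both of its rows summed, PRKCE differed by 0.15 (limma, adjusted p = 0.256). All 26 .primary rows of these genes were lower than in Brg1, with a median of -1.79. Of all rows of both types 39.1% were lower in that comparison. Among protein-coding .primary rows 6971 of 9727 were lower, and among .primary rows above 500 kb 266 of 271, so most .primary rows shared this.

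**Figure D4:**
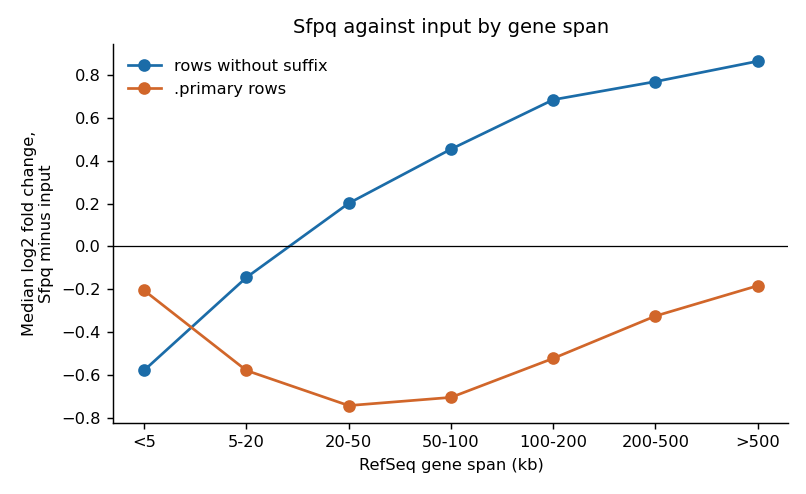
Median log2 fold change, Sfpq minus input (vertical axis), by RefSeq gene span in kb (horizontal axis), for plain rows in blue and .primary rows in orange. The plain medians go from -0.58 to 0.87 from the shortest to the longest bin, and the .primary medians are lowest at 20 to 50 kb, at -0.74.

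The largest rises among plain rows with a mean of at least 10 RPM were in HIVEP1, DNM1P47, RFX7, ZNF616, RLF and a mitochondrial tRNA. HIVEP1, a large zinc finger protein that binds enhancers, stood at 295 and 277 RPM in Sfpq and at 34.0 and 47.5 in input, a rise of 2.82 (SE 0.16, adjusted p = 6.3e-09). In Brg1 it stood at 27.6 and 23.6 and in IgG at 48.4, 45.7 and 83.5, all far below Sfpq. RFX7, a winged-helix transcription factor, stood at 229 and 209 against 29.4 and 36.9, a rise of 2.71, and at 6.80 and 9.57 in Brg1. RLF, a zinc finger protein, rose by 2.47 and the dynamin pseudogene DNM1P47 by 2.80. These plain rows kept their calls with the deposited scaling. With both rows of a gene summed, the rises were 1.75 for HIVEP1, 1.36 for RFX7, 1.06 for RLF and 2.455 for DNM1P47. Abundant messages picked after their values were seen moved less on their plain rows: SRRM2, a splicing scaffold, stood at 2484 and 2546 against 1151 and 1165 (1.12), the ubiquitin ligase HUWE1 at 2002 and 1936 against 900 and 964 (1.08), and PRRC2C, a stress granule protein, at 1600 and 1494 against 448 and 528 (1.67). The last 3 were not called with the deposited scaling.

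In a few rows 1 group was at or near 0 reads. HIST1H2BC, a replication histone of the H2B kind, had 0.280 and 0 RPM on its plain row in Sfpq and 223 and 204 in input, at least 515.5-fold lower at a floor of 3 reads in each library. Its .primary row had 178 and 145 in Sfpq and 0.209 and 0.312 in input. With both rows summed, the gene differed by -0.40. The other pull-downs did not agree among themselves: IgG A and IgG C had 0 on the plain row and 52.7 and 106 on the .primary row, while IgG B had 43.4 and 0.571. MZF1, a myeloid zinc finger gene, had 0 in both Sfpq libraries on its .primary row and 25.6 and 26.3 in input, at least 62.7-fold lower. FILIP1L.primary was called higher although only Sfpq A was high, at 115 against 0.272 in Sfpq B and 0.251 and 0.125 in input. The .primary row of AC055811.1 had 20.6 and 29.0 in Sfpq and 0 in both inputs, at least 198.5-fold higher, but the Brg1 libraries stood at 0.0210 and 52.3. In HIST1H2BC the change of each row was thus far larger than the change of the gene.

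MRPS24, a mitochondrial ribosomal protein whose gene overlaps a readthrough gene, was lowest of its class at 0.700 and 0 against 30.5 and 33.0 RPM, a change of -5.38 (SE 0.38, adjusted p = 6.1e-08). U2AF1, the small subunit of the splicing factor that reads the 3′ splice site, stood at 4.20 and 0.544 against 12.4 and 21.5, a change of -2.93 that DESeq2 did not call. A near-identical copy of U2AF1 exists in this genome build, so its reads may be split. UCHL3.primary, of a ubiquitin hydrolase gene, had 0.980 and 0 against 24.7 and 19.5.

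Mitochondrially encoded RNAs had a mixed pattern that followed their order on the mitochondrial chromosome. Of 14 rows in the list, which leaves out the tRNA rows, 5 rose and 5 fell (35.7% each). Of all plain rows 39.6% rose and 21.1% fell. The 5 of the list that fell, MT-RNR2, MT-ND1, MT-ND2, MT-CO1 and MT-CO2, all lie before MT-ATP8 in the RefSeq order (GRCh38.p14, MT 1671 to 8269), and the 5 of the list that rose, MT-ATP8, MT-ND3, MT-ND4L, MT-ND4 and MT-ND5, lie from 8366 to 14148. MT-CO1, subunit 1 of cytochrome oxidase, stood at 1935 and 1865 RPM in Sfpq and at 5266 and 5993 in input, a change of -1.56 (SE 0.14, adjusted p = 5.6e-07). MT-ND5, a complex I subunit, stood at 4529 and 4594 against 1710 and 2276, a rise of 1.21 (SE 0.16, adjusted p = 1.1e-05). Within the later stretch MT-ATP6 (0.22) and MT-CO3 (0.05) were not called, nor were MT-ND6 (0.06) and MT-CYB (-0.29) beyond it. MT-TH, the histidine tRNA that starts 1 base after MT-ND4 ends, stood at 121 and 117 against 12.2 and 13.9, the largest plain rise at 3.14, while the tRNA row MT-TC, before MT-CO1, fell by 0.76. The tRNA rows MT-TY (-0.34), before MT-CO1, and MT-TS1 (-0.18), after it, were not called. MT-ND4L with MT-ND4, and MT-ATP8 with MT-ATP6, overlap in sequence, and reads there cannot be told apart. MT-RNR2 stood at 4.76 and 2.58 against 13.4 and 4.80, and neither it nor MT-ND4 was called without input A. With the deposited scaling the fold changes of the 5 that rose were no longer called.

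The same rows were not called against IgG. MT-ND5 stood at 2092, 3903 and 5101 in the IgG libraries and MT-TH at 73.2, 114 and 143, ranges that hold the Sfpq values, and 0 of 14 passed in that comparison. Of all rows tested against IgG, 4.92% were called higher and 0.0759% lower. In Brg1 the mitochondrial rows were far lower, with MT-ND5 at 245 and 298, and all 14 were higher in Sfpq than in Brg1, by a median of 3.005. Of all rows of both types 37.1% were higher in that comparison, and of 10140 protein-coding plain rows 7227 were.

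**Figure D5:**
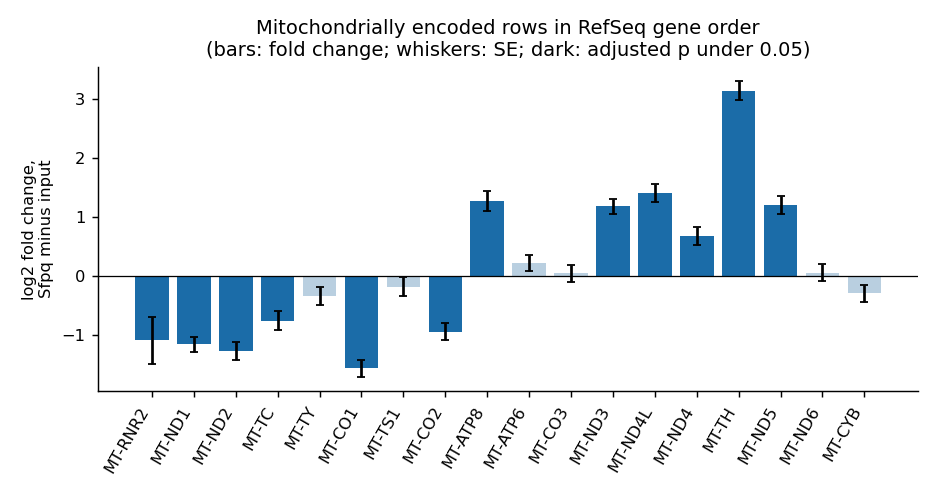
Log2 fold change, Sfpq minus input (bars, with SE as whiskers), of mitochondrially encoded rows in the order of the RefSeq annotation; dark bars have an adjusted p under 0.05. Bars up to MT-CO2 are below 0, and those from MT-ATP8 to MT-ND5 are above it.

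Of 9 prostate luminal and androgen-response rows 2 rose (22.2%, beside 39.6% of all plain rows), HOXB13 (38.0 and 31.8 RPM against 19.7 and 25.6, a rise of 0.62) and FKBP5 (0.47), and 0 fell; neither was called without input A. Of 15 immediate early genes, short-lived transcripts of signal response, 10 rose (66.7%) and 0 fell, with a median of 0.59. FOSL2, an AP-1 subunit, stood at 21.2 and 20.9 against 7.12 and 9.10, a rise of 1.33. All 15 were higher than in Brg1, beside 37.1% of all rows of both types and 7227 of 10140 protein-coding plain rows.

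Compared with non-specific IgG, few rows stood apart. Of 22410 rows, limma called 1103 (4.92%) higher in Sfpq and 17 (0.0759%) lower, and edgeR called 0 in either direction, with 1798 higher and 774 lower at an unadjusted p under 0.05. Without IgG B limma called 0 higher and 0 lower, with 3305 and 1165 at an unadjusted p under 0.05, and without IgG C, the library of 490879 reads, 2670 higher and 376 lower. The IgG libraries correlated with each other at a Spearman of 0.46 to 0.50, against 0.975 for Sfpq. Of the plain zinc finger rows 24 of 302 were called higher than IgG, of the ribosomal protein rows 0 of 86 in either direction, and of the small structured RNAs 1 of 6 was lower. These shares are compositions and say nothing of the amount of RNA recovered. A lower share in Sfpq and a loss of that RNA from the whole pull-down procedure cannot be told apart by comparison with input.

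Compared with Brg1, the other antibody, 8360 of 22538 rows (37.1%) were higher in Sfpq and 8823 (39.1%) lower. The Brg1 libraries held SMARCA4, the message of the targeted protein, at 12450 and 16360 RPM, against 486 and 492 in Sfpq and 310 and 296 in input. The corresponding message in the Sfpq libraries, SFPQ, was higher than input by 0.79 only. NORAD was higher in Sfpq than in Brg1, with a log2 difference of 3.60, and MALAT1 and KCNQ1OT1 were lower, with differences of -2.29 and -2.14.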

How the data were processed

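RNA immunoprecipitation libraries of 22Rv1 cells were analysed from the table the authors deposited. The deposited values are a signal, normalized counts, taken here as read counts that the authors multiplied by a factor for each library: tested on the file, 100% of values divided by that factor came out whole, with a tolerance of 0.001. Per the submitters' processing notes, the tools were STAR 2.6, Salmon 0.8.2, deepTools 2.5.2 and DESeq2 and the build was hg38; their roles and the basis of the deposited factors are not given in the sources used here. Values were divided by the factor to recover reads, then by the library total. Rows with a mean of at least 1 read per 1000000 (RPM) were tested with limma 3.58.1 (lmFit, eBayes with trend) on log2(RPM + 0.5), 2 Sfpq against 2 input libraries, with Benjamini-Hochberg adjustment over all rows; a call is an adjusted p under 0.05. The fit pooled the spread over rows (13.9 prior degrees of freedom beside 2 residual ones). The same test served for Brg1, IgG and the ratio of a gene's rows. edgeR 4.0.16 and DESeq2 1.42.0 on recovered reads were alternatives. The scripts were tested on simulated data.

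Gene lists, members and tests were chosen with earlier results of these data known. Named rows were the members of the short lists, the 6 rows that changed most in each direction and row type among those called with a mean of at least 10 RPM, the extremes of each list and 4 genes per direction for the ratio; abundant messages were added after their values were seen. Of 14296 gene names, 12850 matched RefSeq (GRCh38.p14). The table names no ERCC rows, and spike-ins were not used here. Some rows of the lists are not reported here. Lists are described by counts and medians without a test. Nothing in the labels says that replicates came from separate cultures, so p-values measure the spread between libraries, which may be technical. Floors of 3 reads cover counting error only.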

Additional observations from a re-analysis of the deposited data

How the results depend on the processing

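The counts of rows called against input (5657 higher, 8109 lower) stayed within 1.5 times under other pseudocounts, filters, TMM (6884 higher) or median-of-ratios factors (7033), edgeR, DESeq2 and leaving out any library, which gave 4351 to 5805 higher and 5795 to 8538 lower. The exceptions were the deposited scaling (326 higher), all 4 groups in one fit (0 higher, 8 lower) and, chosen after seeing the data, the rows of a gene summed (3597 higher and 3972 lower of fewer features tested). DESeq2 gave 53.6% of calls as higher and leaving out the 20 most abundant rows 34.5%, against 41.1%. Leaving out single libraries gave 7415 to 8074 higher and 8082 to 8806 lower rows against Brg1, 0 to 2670 higher and 0 to 376 lower against IgG, and 432 to 1055 higher and 3182 to 5080 lower genes for the ratio of rows, whose count of higher genes was 496 without input A and 432 without input B. Against IgG, TMM factors gave 26 lower and edgeR 0 higher and 0 lower. Without Sfpq A or Sfpq B, 3 rows were lower than IgG, and without IgG A 2083 were higher and 32 lower. The .primary share differed by -6.07 points, by -9.04 to -3.11 with a library left out, and by -14.5 as the median over genes. Among named rows called against input, 7, each called higher, changed sign, all with the deposited scaling: KCNQ1OT1 (-0.044), OIP5-AS1 (-0.16), NONO (-0.11), FKBP5 (-0.046), SRSF4 (-0.025), CLK1 (-0.038) and TUBA1A (-0.14). The cause was not tested.

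The libraries share replicate letters, but deviations of same-letter libraries correlated at r = -0.13 and nothing in the labels pairs them. With the replicate block 5195 rows were higher and 7608 lower, and 578 and 4008 genes for the ratio. With the letters crossed, chosen after seeing the data, 6260 rows were higher and 8752 lower. Depth limits rows near the floor of 0.420 RPM in Sfpq.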
